A study of Mus musculus with 24 samples.

Results

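The 32 genes described here make cholesterol and fatty acids or control their synthesis: 18 enzymes of the sterol pathway, the sterol carrier gene Stard4, 5 genes of the SREBP control system and 8 genes of fatty acid synthesis. They were chosen by name, all 32 had a row among the 55416 gene rows of the deposited table, and all 32 passed the filter on low counts that left 17736 genes to test. RNA-seq had been done on cerebellum from neonatal C57BL/6J mice, 12 given ethanol in intralipid by gavage (Ethanol) and 12 given intralipid with water (Vehicle, the study's control). Dosing began at P4, and animals were taken at P5 or P6, a day after their last dose. All animals of both groups had therefore received the lipid emulsion and the gavage. By its label each animal has a treatment and a number, while age, sex and litter are missing there, so both ages were compared together. The labels name the tissue only as brain.

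The 24 libraries held 26982510 to 38804909 estimated counts in Ethanol animals and 29039869 to 38696572 in Vehicle animals, and levels are given as CPM (counts scaled to a common library size, with TMM factors). CPM is not scaled for transcript length, so levels were compared between animals and not between genes. Summed markers of Purkinje cells stood at 1338 to 1582 CPM in Ethanol animals, against 1447 to 1742 CPM in Vehicle animals, and those of granule neuron precursors at 1782 to 2075 CPM in Ethanol animals, against 1900 to 2231 CPM in Vehicle animals, so transcripts of these lists were present in each library. The precursor list includes the proliferation genes Mki67 and Top2a, and sums alone do not settle the tissue. Ttr, which encodes transthyretin and marks the choroid plexus, stood at 1.15 to 3.57 CPM in 2 Ethanol libraries (X4568 and X4766) and 2 Vehicle libraries (X4761 and X4770), against 322 to 5049 CPM in the others. Where the genes past the threshold among the 32 genes or in a list described below change without these 4 libraries, both results are given. Ethanol X4673 stood apart as well, with levels outside the range of all Vehicle animals for more genes than any other Ethanol animal. Without it, Insig2 was higher and Insig1 and Acaca were lower among the 32 genes. Of all 17773 genes tested, 1735 were then higher and 1438 lower. Put in numerical order and cut into sets of 4, the animal numbers give 6 runs with 2 Ethanol and 2 Vehicle animals in each. The labels do not mark these cuts, and some steps between runs are no larger than steps within a run. By the study's methods 6 litters, 3 at each age, gave 2 animals of each treatment apiece, which is also the make-up of a run. No label ties an animal number to a litter or an age, so whether a run is a litter is not known, and within a run litter, age and handling cannot be told apart.

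Cells make cholesterol from acetyl-CoA by way of mevalonate, squalene and lanosterol. Transcription of nearly all of these enzymes is driven by the SREBP proteins, of which SREBP2 (Srebf2) acts mainly on cholesterol genes and SREBP1 (Srebf1) mainly on fatty acid genes. When sterols are plentiful, the INSIG proteins hold SREBP and its escort SCAP in the endoplasmic reticulum, and when sterols fall the complex leaves and SREBP is cut to its active form. Insig1 is itself a target of SREBP, whereas Insig2 is much less so. The brain makes almost all of its own cholesterol, much of it for myelin and synapses.

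Promoter sequences were matched for 25 of the 32 genes in RefSeq (GRCm38.p6), as windows of 250 bases before to 50 bases after each annotated start. SREBPs bind sterol elements together with NF-Y, which binds CCAAT, and Sp1, which binds GGGCGG. The windows of the 3 genes that passed the test between treatments (Insig1, Insig2 and Msmo1) and of Hmgcs1, which differed between runs and carries a sterol element core, are shown for the letters described below, with CCAAT on either strand (CCAAT or ATTGG) and the core TCACNCCAC in capitals. They lie at chr5:28071162-28071461 on the plus strand, chr1:121332540-121332839 on the minus strand (the most upstream of its 3 windows), chr8:64733529-64733828 on the minus strand and chr13:119690101-119690400 on the plus strand.
Insig1: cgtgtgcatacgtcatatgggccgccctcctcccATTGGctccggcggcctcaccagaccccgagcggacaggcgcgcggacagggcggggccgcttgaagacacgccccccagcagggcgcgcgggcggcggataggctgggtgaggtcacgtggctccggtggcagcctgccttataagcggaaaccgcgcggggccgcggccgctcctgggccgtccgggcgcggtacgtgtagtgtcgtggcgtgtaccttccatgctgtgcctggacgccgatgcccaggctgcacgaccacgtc
Insig2: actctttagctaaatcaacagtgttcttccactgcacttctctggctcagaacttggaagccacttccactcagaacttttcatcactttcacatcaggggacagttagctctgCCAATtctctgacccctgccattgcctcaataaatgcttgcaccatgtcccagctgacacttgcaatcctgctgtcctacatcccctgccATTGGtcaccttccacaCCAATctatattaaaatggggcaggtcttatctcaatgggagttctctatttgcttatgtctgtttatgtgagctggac
Msmo1: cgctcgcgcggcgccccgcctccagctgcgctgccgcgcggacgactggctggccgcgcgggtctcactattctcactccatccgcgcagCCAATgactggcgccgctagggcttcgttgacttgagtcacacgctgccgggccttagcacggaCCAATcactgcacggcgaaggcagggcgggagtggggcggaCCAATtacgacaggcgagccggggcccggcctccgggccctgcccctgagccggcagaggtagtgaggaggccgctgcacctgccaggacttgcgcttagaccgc
Hmgcs1: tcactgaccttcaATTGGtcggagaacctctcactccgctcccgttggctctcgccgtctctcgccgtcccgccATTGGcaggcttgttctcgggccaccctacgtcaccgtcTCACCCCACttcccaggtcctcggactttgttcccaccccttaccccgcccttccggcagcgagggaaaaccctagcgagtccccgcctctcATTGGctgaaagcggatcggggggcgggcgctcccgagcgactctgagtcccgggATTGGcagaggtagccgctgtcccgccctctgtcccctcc

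The Insig1 window held 1 CCAAT match and 3 matches of GGGCGG or its complement CCGCCC. The Insig2 window shown held 3 CCAAT matches and 0 GGGCGG matches, and its other windows held 0 CCAAT matches and 1 GGGCGG match each. Msmo1 held 3 CCAAT and 2 GGGCGG matches. Hmgcs1 held 4 CCAAT and 3 GGGCGG matches and, beginning at position -137 from the start on the plus strand, the letters TCACCCCAC. Searched on both strands, TCACNCCAC stood in the windows of 1 of 25 genes (4.0%), against 1.44% of all 27025 genes in the table. CCAAT stood in those of 20 of 25 (80.0%), against 41.1% of all genes, and of 14 of 15 sterol enzymes. GGGCGG stood in those of 21 of 25 (84.0%), against 38.2% of all genes, and also of 14 of 15 sterol enzymes. The 27025 genes include genes that were not tested here, and shares over the 17736 tested genes were not counted. The motifs were searched one by one, and ATTGG and GGGCGG can share guanines, in which case both were counted. A match is a run of letters and not a measured site.

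Mean transcript levels of this pathway were close between Ethanol and Vehicle animals. Of the 32 genes, 2 were higher in Ethanol (Insig2 and Msmo1; 9.07% of all genes tested were higher), 1 was lower (Insig1; 5.8% of all genes tested were lower), and 29 did not pass an adjusted p of 0.05 in edgeR's quasi-likelihood test with Benjamini-Hochberg adjustment over all genes. Without run 1, 5 were higher (Cyp51, Fads2, Insig2, Msmo1 and Sc5d), against 1244 of all 17696 genes tested. Without the 4 libraries low in Ttr 0 were higher and Insig1 was lower, against 1206 and 612 of 17769. Without run 3 or run 5 only Insig2 passed, where 1118 of 17788 and 1328 of 17789 genes were higher. With all 24 libraries, 9.38% of the 32 genes passed, against 14.9% of all genes tested and 16.4% of the 8914 genes with mean levels in the same range. Fold changes were positive for 16 genes and negative for 16, with a median log2 fold change of 0.00 over the 32 genes, against -0.01 over all genes tested. The median size of the change was 0.05 on the log2 scale, against 0.07 over all genes tested and 0.05 over the 8914 genes of like level. The 95% interval of the log2 fold change lay within 0.2 of 0 (a change of -12.9% to 14.9%) for 25 of 32 genes and for 15 of 18 sterol enzymes, and within 0.5 for all 32. The RNA is of whole tissue, in which fewer cells of a type and less RNA per cell cannot be told apart.

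**Figure D1:**
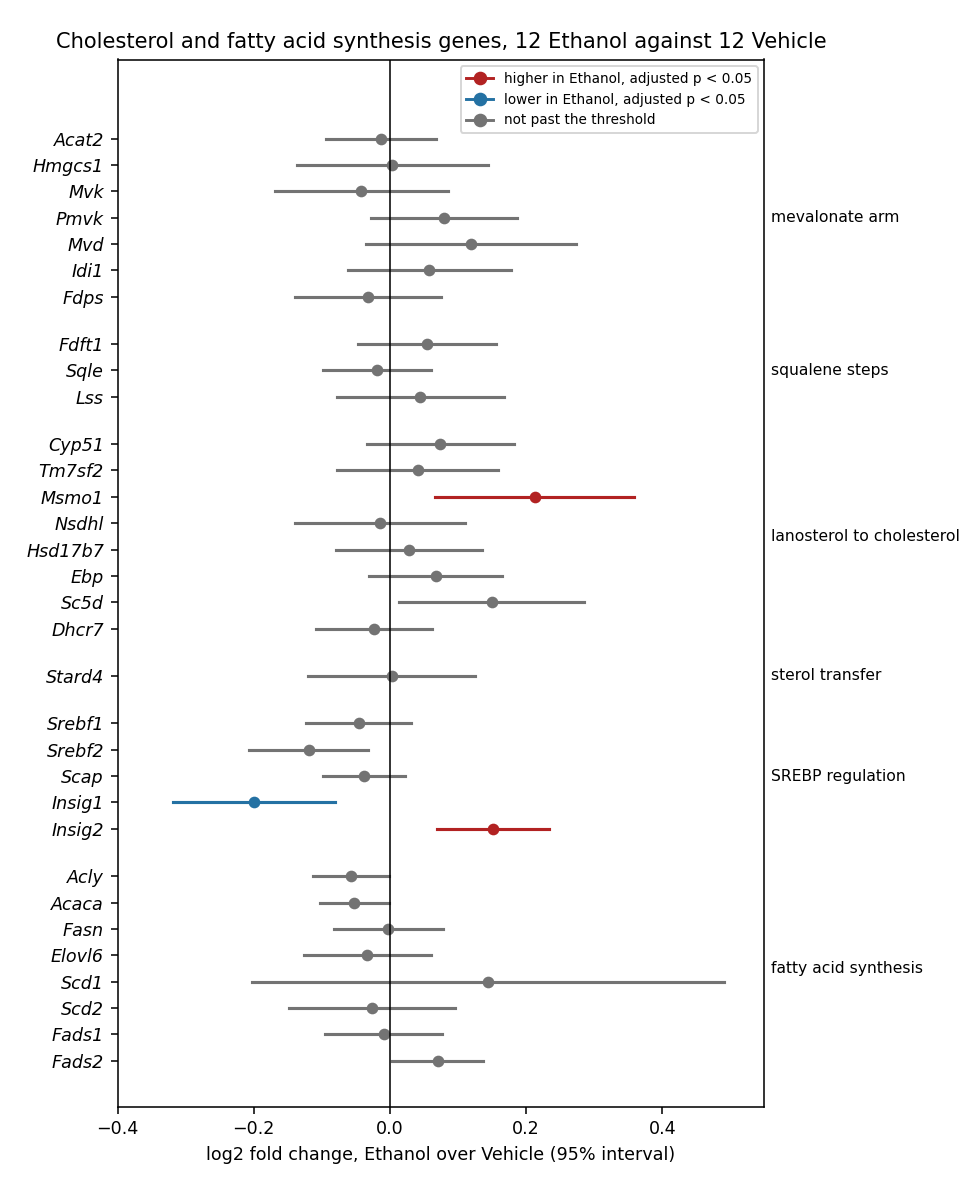
Log2 fold change of each of the 32 genes, Ethanol over Vehicle, with its 95% interval (horizontal axis), grouped by step of the pathway (vertical axis). Msmo1 and Insig2 (red) lay above 0 at 0.21 and 0.15, Insig1 (blue) lay below at -0.20, and Scd1 had the widest interval, -0.20 to 0.49.

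The genes that differed between the groups were led by the INSIG pair, which moved in opposite directions. Insig1 had a lowest, median and highest level of 93.6, 114 and 135 CPM in Ethanol animals, against 109.5, 132 and 146 CPM in Vehicle animals. All but 1 of 12 Ethanol animals lay below the Vehicle median, and the groups overlapped. Means were 114 ± 13.9 CPM in Ethanol animals and 131 ± 10.6 CPM in Vehicle animals (SD, n = 12 each), with a log2 fold change of -0.20 (adjusted p = 0.0199, SE 0.06), a change of -12.9% (95% interval -19.8% to -5.45%). Insig2 had a lowest, median and highest level of 27.8, 31.1 and 34.3 CPM in Ethanol animals, against 24.8, 27.7 and 31.3 CPM in Vehicle animals. All 12 Ethanol animals lay above the Vehicle median, with overlap between 27.8 and 31.3 CPM. Means were 30.7 ± 1.99 CPM in Ethanol animals and 27.6 ± 2.0 CPM in Vehicle animals (SD, n = 12 each), with a log2 fold change of 0.15 (adjusted p = 0.0116, SE 0.04), a change of 11.1% (95% interval 4.87% to 17.6%).

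Both INSIG differences had 1 sign in each of the 6 runs. The difference of mean log2 CPM, Ethanol minus Vehicle, for Insig1 was -0.23, -0.14, -0.20, -0.06, -0.39 and -0.21 in runs 1 to 6. For Insig2 it was 0.16, 0.24, 0.10, 0.14, 0.11 and 0.16. Insig1 passed the threshold in 36 of 39 other fits of the data and lost it without run 3 (adjusted p = 0.0588), without run 5 (adjusted p = 0.0865) and with no filter on low counts (adjusted p = 0.0556), all edgeR. Insig2 passed in 38 of 39 and lost it only without the 4 libraries low in Ttr (log2 fold change 0.14, edgeR adjusted p = 0.052).

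The other 3 control genes did not pass the test. Srebf2, which encodes SREBP2, had means of 288 ± 27.2 CPM in Ethanol animals and 313 ± 17.4 CPM in Vehicle animals (SD, n = 12 each) and a log2 fold change of -0.12 (adjusted p = 0.0584, SE 0.04). Of 12 Ethanol animals, 9 lay below the Vehicle median of Srebf2, and the difference was negative in 6 of 6 runs, between -0.20 and -0.02. With the runs as a block, Srebf2 was lower at an edgeR adjusted p of 0.00542, and it passed in 11 of 39 other fits, 7 of them with 1 library left out. Srebf1, which encodes SREBP1, stood at 139 to 173 CPM in Ethanol animals, against 149.6 to 177 CPM in Vehicle animals, with a log2 fold change of -0.05 (95% interval -0.12 to 0.03). Scap, the escort of both SREBPs, stood at 91.1 to 109 CPM in Ethanol animals, against 97.0 to 109.5 CPM in Vehicle animals, with a log2 fold change of -0.04 (95% interval -0.10 to 0.02).

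**Figure D2:**
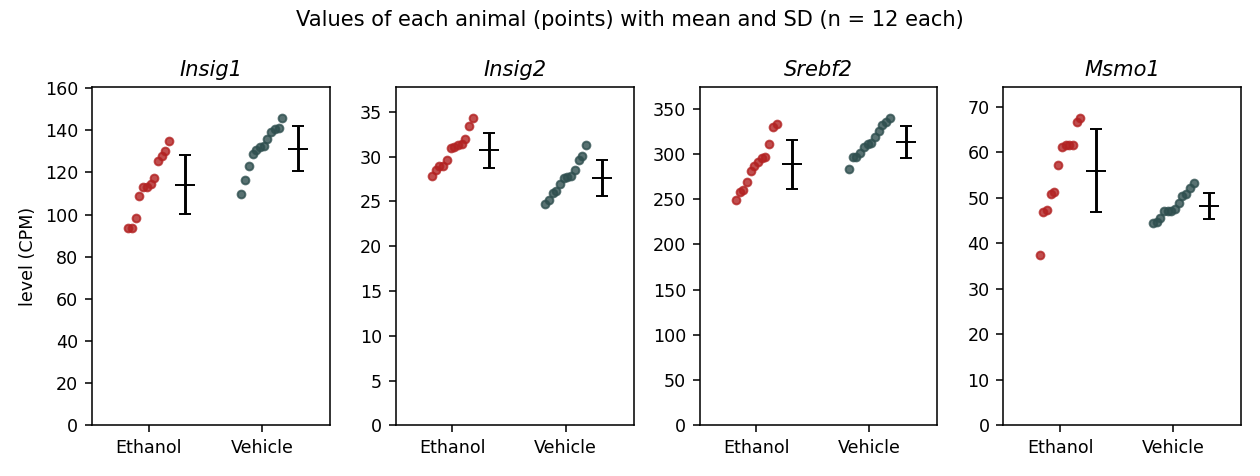
Level in CPM (vertical axis from 0) of Insig1, Insig2, Srebf2 and Msmo1 in each of 12 Ethanol animals (red, left) and 12 Vehicle animals (dark, right), sorted by value, with the mean and SD. Ethanol animals ranged from 93.6 to 134.9 CPM for Insig1, against 109.5 to 145.8 CPM in Vehicle animals, and Msmo1 spread from 37.5 to 67.6 CPM in Ethanol animals, against 44.4 to 53.3 CPM in Vehicle animals.

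The mevalonate arm, which turns acetyl-CoA into farnesyl diphosphate, had 0 of 7 genes past the threshold in edgeR, 0 at an unadjusted p under 0.05, and 0 in DESeq2, limma-trend and limma-voom. Over all genes tested, 5041 of 17736 had an unadjusted p under 0.05 in edgeR. Hmgcs1, the synthase that makes HMG-CoA, had close means in both groups and a very unequal spread. Hmgcs1 had a lowest, median and highest level of 321, 460.4 and 566 CPM in Ethanol animals, against 434, 455 and 484 CPM in Vehicle animals. Ethanol animals lay on both sides of all Vehicle animals. Means were 458 ± 75.3 CPM in Ethanol animals and 457 ± 16.7 CPM in Vehicle animals (SD, n = 12 each), with a log2 fold change of 0.00 (95% interval -0.14 to 0.14). Acat2, the thiolase of the first step, had a log2 fold change of -0.01 (95% interval -0.09 to 0.07), and Mvk, mevalonate kinase, one of -0.04 (95% interval -0.17 to 0.09). Pmvk, the next kinase, had one of 0.08 (95% interval -0.03 to 0.19), and Mvd, the decarboxylase after it, one of 0.12 (95% interval -0.04 to 0.27), the largest of the 7. Idi1, the isomerase of isopentenyl diphosphate, had one of 0.06 (95% interval -0.06 to 0.18). Fdps, farnesyl diphosphate synthase, had one of -0.03 (95% interval -0.14 to 0.07).

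The squalene steps, which commit the pathway to sterols, had 0 of 3 genes past the threshold in edgeR, 0 at an unadjusted p under 0.05 (5041 of all 17736 genes tested), and 0 in DESeq2 and both limma fits. Sqle, squalene epoxidase, was the most even gene among Vehicle animals. Sqle had a lowest, median and highest level of 121, 148 and 165 CPM in Ethanol animals, against 143, 149.6 and 153 CPM in Vehicle animals. Ethanol animals lay both below and above the narrow band of the 12 Vehicle animals. The log2 fold change was -0.02 (95% interval -0.10 to 0.06) for Sqle. It was 0.05 (95% interval -0.05 to 0.16) for Fdft1, squalene synthase, and 0.04 (95% interval -0.08 to 0.17) for Lss, lanosterol synthase.

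Among the 8 enzymes between lanosterol and cholesterol, 1 was higher in Ethanol animals. Msmo1 had a lowest, median and highest level of 37.5, 59.2 and 67.6 CPM in Ethanol animals, against 44.4, 47.4 and 53.3 CPM in Vehicle animals. Msmo1 encodes the oxidase that removes methyl groups from carbon 4 of the sterol ring, and 10 of 12 Ethanol animals lay above its Vehicle median. Means were 56.0 ± 9.11 CPM in Ethanol animals and 48.3 ± 2.87 CPM in Vehicle animals (SD, n = 12 each), with a log2 fold change of 0.21 (adjusted p = 0.0433, SE 0.07), a change of 15.9% (95% interval 4.74% to 28.2%). The difference was positive in 5 of 6 runs and -0.25 in run 1. Msmo1 passed in only 14 of 39 other fits, with adjusted p between 0.00185 without run 1 and 0.151 without run 4, both edgeR. Leaving out the 4 libraries low in Ttr gave an edgeR adjusted p of 0.0886. With 1 library left out at a time, Msmo1 passed in 9 of 24 fits, those without Ethanol X4568, X4569, X4674, X4683 or X4760 or Vehicle X4570, X4695, X4762 or X4768, and had an edgeR adjusted p of at most 0.0817 in the rest.

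The neighbours of Msmo1 in the pathway did not pass. Sc5d, a desaturase near the end of the pathway, had 48.3 to 81.9 CPM in Ethanol animals, against 53.3 to 66.9 CPM in Vehicle animals, with a log2 fold change of 0.15 (adjusted p = 0.134, SE 0.07), and it passed in 2 of 39 other fits, 1 of them without run 1. Cyp51, the demethylase that acts on lanosterol, had 112 to 174 CPM in Ethanol animals, against 135 to 151 CPM in Vehicle animals, with a log2 fold change of 0.07 (95% interval -0.03 to 0.18). Nsdhl, a dehydrogenase that works beside Msmo1, had 30.4 to 51.2 CPM in Ethanol animals, against 41.9 to 46.2 CPM in Vehicle animals, with a log2 fold change of -0.01 (95% interval -0.14 to 0.11). Of 12 Ethanol animals, 7 lay outside the Vehicle range of Nsdhl. Hsd17b7, the reductase of the same complex, had a log2 fold change of 0.03 (95% interval -0.08 to 0.14). Tm7sf2, a sterol reductase, had one of 0.04 (95% interval -0.08 to 0.16) and Ebp, the sterol isomerase, one of 0.07 (95% interval -0.03 to 0.16). Dhcr7, the reductase of the last step, had one of -0.02 (95% interval -0.11 to 0.06). Stard4, which carries cholesterol between membranes, had 47.2 to 72.0 CPM in Ethanol animals, against 54.9 to 66.2 CPM in Vehicle animals, with a log2 fold change of 0.00 (95% interval -0.12 to 0.12).

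Of the 8 fatty acid synthesis genes, 0 passed the threshold in edgeR, DESeq2, limma-trend or limma-voom. In edgeR 3 had an unadjusted p under 0.05 (Acly, Acaca and Fads2), against 5041 of all 17736 genes tested. Acly, which makes cytosolic acetyl-CoA from citrate, had 285 to 336 CPM in Ethanol animals, against 301 to 340.2 CPM in Vehicle animals, with a log2 fold change of -0.06 (adjusted p = 0.159, SE 0.03), negative in 6 of 6 runs. Acaca, acetyl-CoA carboxylase, had a log2 fold change of -0.05 (95% interval -0.10 to -0.00). Fads2, a desaturase of polyunsaturated fatty acids, had one of 0.07 (95% interval 0.00 to 0.14), and its partner Fads1 one of -0.01 (95% interval -0.09 to 0.08). Fasn, fatty acid synthase, stood at 437 to 531 CPM in Ethanol animals, against 421 to 544 CPM in Vehicle animals, with one of -0.00 (95% interval -0.08 to 0.08). Elovl6, which lengthens palmitate, had one of -0.03 (95% interval -0.13 to 0.06). Scd2, the main stearoyl-CoA desaturase of the neonatal brain, had 1144 to 1713 CPM in Ethanol animals, against 1432 to 1661 CPM in Vehicle animals, with a log2 fold change of -0.03 (95% interval -0.15 to 0.10). Scd1, a second desaturase of this family, was the most variable of the 32 genes. Scd1 had a lowest, median and highest level of 34.1, 89.9 and 119 CPM in Ethanol animals, against 61.2, 72.9 and 91.7 CPM in Vehicle animals. Its log2 fold change was 0.14 (adjusted p = 0.626, SE 0.17), with an interval of -0.20 to 0.49, so a change of -13.1% to 40.5% lay within its error. Scd1 and Scd2 are close relatives in sequence, and their estimated counts depend on how shared reads were divided.

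The spread between animals was larger in Ethanol than in Vehicle animals for most of the pathway. The SD of log2 CPM was larger in Ethanol than in Vehicle animals for 18 of 18 sterol enzymes, with a median SD of 0.192 in Ethanol and 0.0694 in Vehicle animals and a median ratio of 2.74. Over all 32 genes it was larger for 30 (93.8%), with a median ratio of 2.20, whereas it was larger for 62.4% of all genes tested, with a median ratio of 1.12. The exceptions were Insig2 (ratio 0.897) and Fasn (0.968). The ratio was 5.19 for Nsdhl, 4.72 for Hmgcs1, 4.49 for Sqle and 4.12 for Cyp51, against 1.22 for Mvd. Without run 1 it was again larger for 18 of 18 sterol enzymes, with a median ratio of 2.25. Over all genes tested it was then larger for 62%, with a median ratio of 1.13. Without X4673 it was larger for 18 of 18 sterol enzymes, with a median ratio of 2.75, and for 48.1% of all genes tested, with a median ratio of 0.983.

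A test of this difference, chosen after the spread had been seen, did not pass for any gene. On the square root of each animal's absolute deviation from its group median, limma called 0 genes wider in Ethanol (0% of 17736 tested) and 0 of the 32. At an unadjusted p under 0.05, 10 of 18 sterol enzymes and 12 of 32 genes were wider in Ethanol, against 2.84% of all genes. The number was 6 of 32 without run 1 (2.2% of all genes) and 8 of 32 without X4673 (0.737% of all genes). Without the 4 libraries low in Ttr it was 8 of 32 (2.84% of all genes). The smallest adjusted p was 0.456, for Sc5d (limma). The wider spread is therefore a description of these 24 animals, and the 18 enzymes, measured in the same animals, are not separate pieces of evidence.

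**Figure D3:**
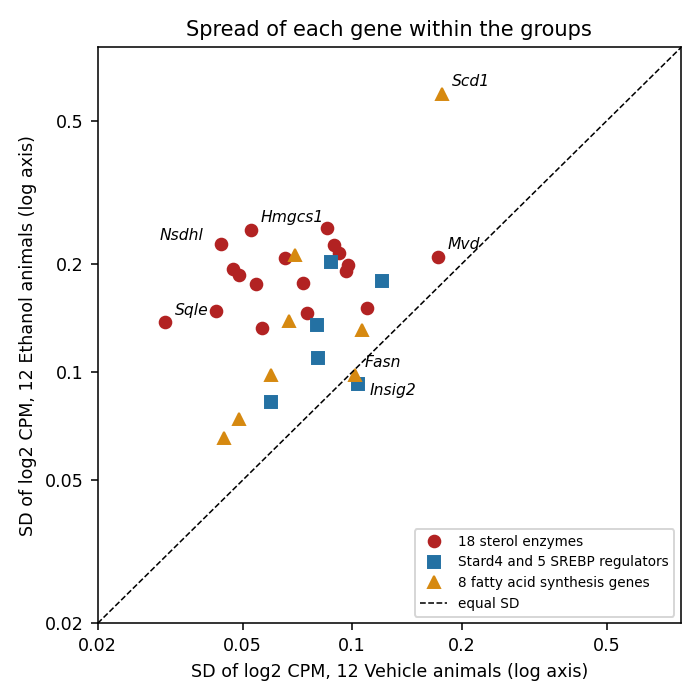
SD of log2 CPM over 12 Ethanol animals (vertical, log axis) against that over 12 Vehicle animals (horizontal, log axis) for each of the 32 genes, with a dashed line of equal SD. All 18 sterol enzymes (red circles) lay above the line, Scd1 had an SD of 0.593 in Ethanol and 0.176 in Vehicle animals, and Insig2 and Fasn lay just below the line.

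In single animals many of the 18 sterol enzymes were high or low at once. Their levels added up to 1338, 1766 and 2003 CPM in the lowest, median and highest Ethanol animal, against 1631, 1683 and 1773 CPM in Vehicle animals. Mean sums were 1732 ± 208 CPM in Ethanol and 1697 ± 43.0 CPM in Vehicle animals (SD, n = 12 each), a ratio of 1.02. Single Ethanol animals left the Vehicle range for most of the pathway: X4569 was below all Vehicle animals for 16 of 18 enzymes and X4568 for 11, whereas X4766 was above all of them for 16, X4694 for 15, and X4692 and X4673 for 13 each. X4760 was below all Vehicle animals for 8 enzymes. X4681, X4758 and X4765 were above for 5, 6 and 5, and X4674 and X4683 were below for 3 and 1. X4673 was also below all of them for 2. Over all 17736 genes tested, 6.19% to 14% lay above the Vehicle range in each Ethanol animal but X4673, where 24.3% did, and 5.95% to 13.4% lay below it, against 21.4% in X4673. X4673 thus stood apart for genes in general, and the shares of X4568, X4569, X4692, X4694 and X4766 lay between 11% and 14% on each side. Of these animals, X4568 and X4766 have libraries low in Ttr, one on each side. The 8 fatty acid genes added up to 2633 to 3589.7 CPM in Ethanol animals, against 3002 to 3494 CPM in Vehicle animals.

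The lowest and the highest sterol sums of Ethanol animals each fell in 1 run. In the other runs the 2 Ethanol animals lay further from each other than the pair of run 4. Their sums were 1830 and 1644 CPM in run 2 and 1762 and 1663 CPM in run 3. In run 5 they were 1775 and 1588 CPM, and in run 6 1770 and 1961 CPM. The low Ethanol animals X4568 and X4569 form run 1, whose sterol sum averaged 1396 CPM in Ethanol and 1699 CPM in Vehicle animals (ratio 0.821). The high pair X4692 and X4694 form run 4, with 1999 CPM in Ethanol and 1726 CPM in Vehicle animals (ratio 1.16). The ratio was 1.04 in run 2, 1.04 in run 3, 0.989 in run 5 and 1.07 in run 6. The median difference of the 18 enzymes in log2 CPM, Ethanol minus Vehicle, was -0.25 in run 1 and 0.17 in run 4, and 0.07, 0.04, -0.02 and 0.10 in runs 2, 3, 5 and 6. In run 1 it was negative for 17 of 18 enzymes, and in run 4 positive for 18 of 18. Over all genes tested the median difference stayed between -0.01 and 0.01 in every run.

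**Figure D4:**
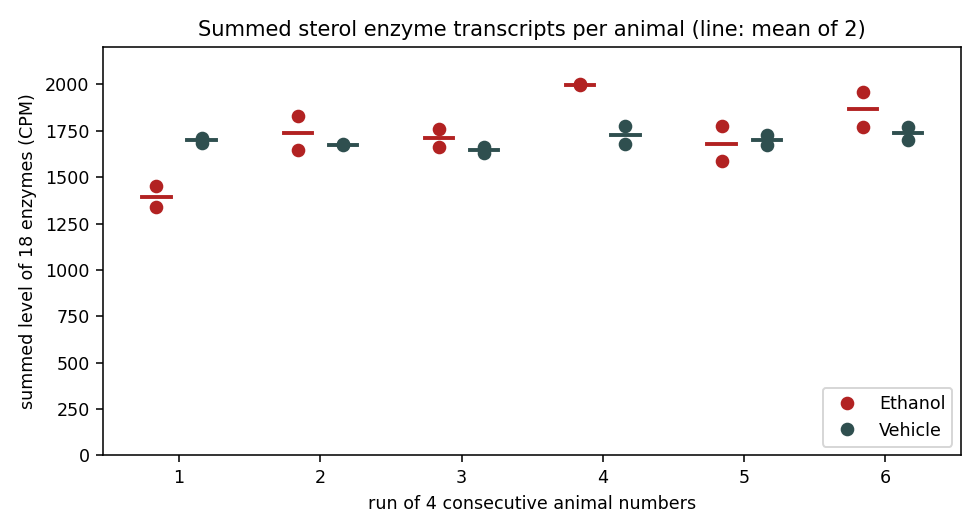
Summed level of the 18 sterol enzymes in CPM (vertical axis from 0) for each animal by run of animal numbers (horizontal axis), with Ethanol animals in red left of Vehicle animals in dark, and a line at each mean of 2. Ethanol means ran from 1396 CPM in run 1 to 1999 CPM in run 4, where both points nearly coincide, while Vehicle means stayed between 1646 and 1736 CPM.

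Scd1 was also lowest in run 1 and highest in run 4 in Ethanol relative to Vehicle animals, with a larger range. In run 1 it stood at 40.2 and 34.1 CPM in Ethanol animals, against 68.6 and 65.7 CPM in Vehicle animals. In run 4 it stood at 119 and 116 CPM in Ethanol animals, against 82.3 and 80.9 CPM in Vehicle animals. Within both runs the groups did not overlap, and the direction was opposite. Runs 1 and 4 were picked as the extremes after the values had been seen. With so few animals in a run, groups can be apart by chance, and how often they were over all genes was not counted. In both runs the groups were also apart for other genes of the pathway, among them Hmgcs1, Sqle and Cyp51. For Scd1 the differences in log2 CPM over runs 1 to 6 were -0.86, -0.18, 0.30, 0.52, 0.15 and 0.40. For Hmgcs1 they were -0.47, -0.08, 0.05, 0.26, 0.02 and 0.14.

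Whether the effect of ethanol differed between runs was tested with a run by treatment interaction in edgeR over all genes, a test added after the pattern had been seen. It passed for 2 of 32 genes, Scd1 and Hmgcs1, each at an adjusted p of 0.0402, against 12 genes of all 17736 (0.0677%). At an unadjusted p under 0.05 there were 12 of 32 genes, against 6% of all genes. Nsdhl had an adjusted p of 0.0997 and Cyp51 one of 0.215. Without run 1 or without run 4 the interaction passed for 0 of the 32 genes (3 and 9 at an unadjusted p under 0.05), and without any one of the other runs it passed for Hmgcs1 and Scd1. The test has 12 residual degrees of freedom and rests on 2 animals of each treatment in a run.

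**Figure D5:**
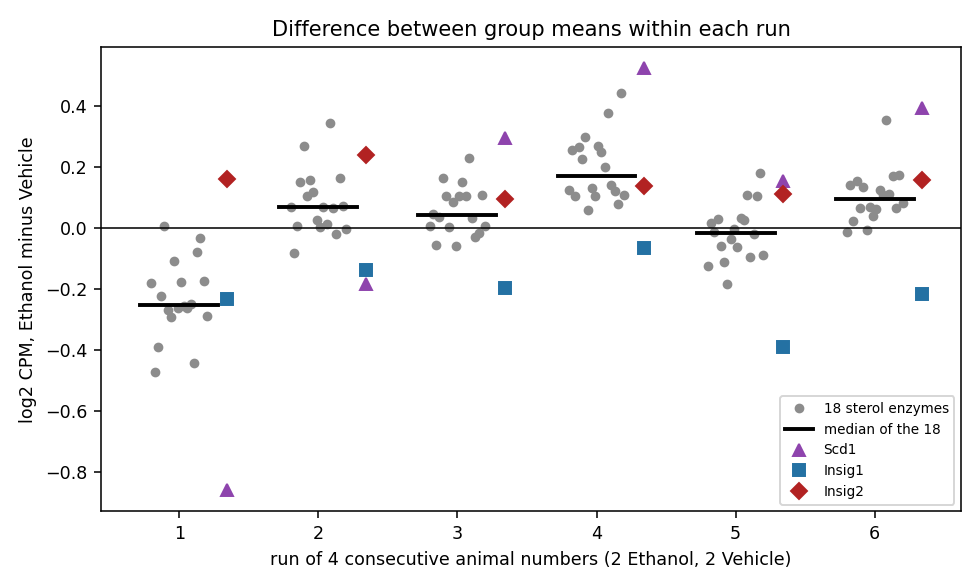
Difference of mean log2 CPM, Ethanol minus Vehicle (vertical axis), within each run of 4 animal numbers (horizontal axis), for the 18 sterol enzymes (grey, median as a bar), Scd1, Insig1 and Insig2. The enzymes and Scd1 lay low in run 1 (Scd1 at -0.86) and high in run 4 (0.52), whereas Insig1 lay below 0 and Insig2 above 0 in each of the 6 runs.

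Differences between runs held a median of 46.3% of the variance of log2 CPM of the 32 genes, against 2.69% for treatment, and more of it than treatment for 30 of 32 genes. Over all genes tested the medians were 26.5% for runs and 6.59% for treatment, with more between runs for 78.4% of genes. The 6 runs have 5 degrees of freedom and treatment has 1, which raises the share of the runs. Insig2 (25.0% between runs, 39.4% between treatments) and Msmo1 (22.2% and 22.9%) were the exceptions. For the sterol enzymes the run differences lay mainly in the Ethanol animals. The range of the 6 run means in log2 CPM had a median over the 18 enzymes of 0.48 in Ethanol and 0.12 in Vehicle animals and was wider in Ethanol for 18 of 18, against medians of 0.27 in Ethanol and 0.23 in Vehicle animals over all genes tested, where it was wider in Ethanol for 60.2%. Run 1 was the lowest run for 16 of 18 enzymes in Ethanol animals and for 2 in Vehicle animals, and run 4 was the highest for 13 in Ethanol animals and for 2 in Vehicle animals. In Vehicle animals 11 enzymes were lowest in run 3 and 9 were highest in run 6. Summed oligodendrocyte markers, which include myelin genes, also varied by run, at a ratio of Ethanol to Vehicle of 0.815 in run 1, 1.06 in run 2, 1.78 in run 3, 1.38 in run 4, 0.871 in run 5 and 0.840 in run 6. Summed choroid plexus markers had a ratio of 0.289, 1.79, 0.555, 0.709, 2.32 and 0.601 in runs 1 to 6. In run 1 the ratio was also 1.29 for astrocyte, 1.24 for granule neuron and 0.694 for meningeal markers, and over the other runs it was 1.07 to 1.18 for astrocyte, 0.864 to 1.10 for granule neuron and 0.777 to 1.15 for meningeal markers. The part of these cell types in the sterol differences was not tested.

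Genes that surround the pathway were taken from lists chosen by role, with earlier results of these data known. The shares of these lists that passed are therefore a description and not a test of the lists. Of 10 further genes of sterol synthesis and uptake, 9 were tested, 1 was higher and 1 lower (9.07% and 5.8% of all genes tested). Leaving out the 4 libraries low in Ttr gave 1 higher and 0 lower (1206 and 612 of all 17769 genes tested). Mylip, a ubiquitin ligase with a part in sterol balance, stood at 12.4 to 17.4 CPM in Ethanol animals, against 9.50 to 14.2 CPM in Vehicle animals. All 12 Ethanol animals lay above its Vehicle median, with a log2 fold change of 0.38 (adjusted p = 6.52e-05, SE 0.06), and it passed in 39 of 39 other fits.

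Of 11 further genes of SREBP processing and turnover, 0 passed in edgeR, DESeq2, limma-trend and limma-voom. In edgeR 2 had an unadjusted p under 0.05, against 5041 of all 17736 genes tested. Rnf145, a ubiquitin ligase of the endoplasmic reticulum, stood at 124 to 153 CPM in Ethanol animals, against 135 to 142 CPM in Vehicle animals, with a log2 fold change of -0.03 (95% interval -0.09 to 0.03).

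Of 25 further genes of fatty acid metabolism, 6 were higher and 1 was lower (28% in all, against 14.9% of all genes tested), and the median log2 fold change was 0.03. Without run 4, 3 were higher (1103 of all 17699 genes tested), and without the 4 libraries low in Ttr 5 were (1206 of 17769). Thrsp, a lipogenic regulator known from liver, stood at 13.5 to 20.1 CPM in Ethanol animals, against 11.6 to 16.1 CPM in Vehicle animals, with a log2 fold change of 0.29 (adjusted p = 0.00262, SE 0.06). Lpin1, a phosphatidate phosphatase, stood at 25.1 to 34.7 CPM in Ethanol animals, against 24.1 to 29.6 CPM in Vehicle animals, with one of 0.20 (adjusted p = 0.00599, SE 0.05). Hacd3, a dehydratase of fatty acid elongation, stood at 183 to 203 CPM in Ethanol animals, against 172 to 187 CPM in Vehicle animals, with one of 0.10 (adjusted p = 0.00173, SE 0.02), and Elovl5, an elongase of polyunsaturated fatty acids, had one of 0.10 (adjusted p = 0.0128, SE 0.03). Lpin1, Hacd3 and Elovl5 act after or beside the synthesis of palmitate. Acsl1, an acyl-CoA synthetase, was lower, at 31.7 to 37.1 CPM in Ethanol animals, against 35.3 to 40.6 CPM in Vehicle animals, with a log2 fold change of -0.12 (adjusted p = 0.00974, SE 0.03). Thrsp, Lpin1, Hacd3 and Acsl1 passed in 39 of 39 other fits, and Elovl5 in 38, all but the fit without run 4 (adjusted p = 0.0726, edgeR).

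Of 13 genes of sterol storage, export and turnover, 4 were higher and 0 were lower in edgeR, DESeq2, limma-trend and limma-voom. In edgeR 7 had an unadjusted p under 0.05 (5041 of all 17736 genes tested), and the median log2 fold change was 0.08. The 4 are 30.8% of the list, and 9.07% of all genes tested were higher. Apoe, the main lipid carrier of the brain, stood at 770.3 to 1044 CPM in Ethanol animals, against 603 to 794 CPM in Vehicle animals, with a log2 fold change of 0.38 (adjusted p = 5.01e-05, SE 0.05). Abcg1, a sterol exporter, stood at 26.0 to 39.1 CPM in Ethanol animals, against 22.7 to 35.1 CPM in Vehicle animals, with one of 0.25 (adjusted p = 0.00306, SE 0.06). Npc1, which moves cholesterol out of lysosomes, stood at 58.3 to 73.4 CPM in Ethanol animals, against 56.7 to 65.1 CPM in Vehicle animals, with one of 0.11 (adjusted p = 0.0106, SE 0.03). Ch25h, the hydroxylase that makes an oxysterol, was near the limit of detection at 0.251 to 1.25 CPM in Ethanol animals, against 0 to 0.492 CPM in Vehicle animals, with a log2 fold change of 1.07 (adjusted p = 0.0181, SE 0.31). All 4 differences were positive in 6 of 6 runs. Apoe and Abcg1 passed in 39 of 39 other fits. Without run 1, Npc1 (adjusted p = 0.0631) and Ch25h (adjusted p = 0.092) did not pass in edgeR. In that fit 2 genes of this list were higher, against 1244 of all 17696 genes tested. Without run 3, Npc1 (adjusted p = 0.0525) did not pass in edgeR either. Apoe and Abcg1 are expressed in astrocytes and microglia. Summed astrocyte markers stood at 3372 to 4044 CPM in Ethanol animals, against 2982 to 3647 CPM in Vehicle animals. Of the 9, 4 were higher and 0 lower (9.07% and 5.8% of all genes tested), with 7 fold changes positive and 2 negative. Summed microglial markers stood at 140.2 to 224 CPM in Ethanol animals, against 138 to 189 CPM in Vehicle animals. Of the 7, 2 were higher and 1 lower (9.07% and 5.8% of all genes tested), with 5 fold changes positive and 2 negative. The part of astrocytes and microglia in the Apoe and Abcg1 differences was not tested. Endothelial markers added up to 311 to 356 CPM in Ethanol animals, against 349.9 to 392 CPM in Vehicle animals, with 0 of 6 higher and 4 lower (9.07% and 5.8% of all genes tested). Leaving out the 4 libraries low in Ttr gave 0 higher and 3 lower (1206 and 612 of all 17769 genes tested).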

How the data were processed

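Poly(A) RNA-seq libraries from 24 neonatal mouse cerebella were analysed, 12 Ethanol and 12 Vehicle, grouped by GEO label. The authors ran nf-core/rnaseq on the reads and deposited estimated counts per gene. STAR, Salmon, limma and the build GRCm39 appear in the submitters' processing notes without versions. The annotation release is not given in the sources used here. Of the values, 10.918% lay further than 0.01 from a whole number, and all were rounded. The label protocols name another RNA kit and homogenizer than the study's methods, which the sources do not settle. All columns matched a label (0 unmapped). The 1597 rows that share a name with an earlier row were kept apart.

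Genes were filtered with filterByExpr, TMM-scaled (factors 0.982 to 1.01) and tested in edgeR 4.0.16 under R 4.3.3 (robust glmQLFit, then glmQLFTest, on 22 residual degrees of freedom) with no covariate. P-values were adjusted over 17736 genes at a threshold of 0.05. Standard errors were taken from the F statistic. Each library came from its own numbered animal, and the closest pair differed beyond sampling noise (mean chi-square 4.95, where noise gives 1). Log2 CPM used a prior count of 2. Alternatives were RLE and upper-quartile factors, DESeq2 1.42.0, limma-trend and limma-voom (limma 3.58.1), no filter, a filter of 1 CPM in 12 libraries, runs as a block, and leaving out the 4 libraries low in Ttr, each library and each run (39 fits). The run by treatment interaction and the spread test were added after seeing the data. Every script that tests across genes was checked on simulated data. For the spread test the simulated difference was larger than the median seen for the sterol enzymes. Its power at the sizes seen is therefore not known. Python 3.11.15, pandas 2.3.3 and matplotlib 3.10.9 served for tables and figures.

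The members and gene lists were chosen with earlier results of these data known. All 32 members are described. From each other list, at most 4 genes past the threshold by smallest p in each direction are named, or the 2 of highest mean level where none passed. Some genes that the rule names are not reported here. Levels over P5 and P6 could not be split. Columns of the authors' comparisons were not used here.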

Additional observations from a re-analysis of the deposited data

Results flagged for a closer look

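The Ethanol effect on Hmgcs1 differed between the 6 runs of animal numbers by the interaction test (edgeR adjusted p = 0.0402). In run 1 Hmgcs1 stood at 349 and 321 CPM in Ethanol animals, against 453 and 475 CPM in Vehicle animals. In run 4 it stood at 566 and 558 CPM in Ethanol animals, against 484 and 456 CPM in Vehicle animals. The Ethanol effect on Scd1 also differed between runs (edgeR adjusted p = 0.0402), with differences in log2 CPM between -0.86 in run 1 and 0.52 in run 4. Both calls rest on runs 1 and 4, since neither gene passed without run 1 or without run 4. No source used here gives the age, litter or handling of a run, and their part in the difference was not tested.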

How the results depend on the processing

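The direction of Insig1, Insig2, Msmo1 and Srebf2 was the same in all 39 other fits. The number of the 32 genes higher in Ethanol was 1 with upper-quartile factors, limma-trend, limma-voom or no filter and without run 2, 3, 4, 5 or 6. It was 0 when the libraries low in Ttr were left out and 5 without run 1 (Cyp51, Fads2, Insig2, Msmo1 and Sc5d). The number lower was 2 with upper-quartile factors, DESeq2, the filter of 1 CPM or the runs as a block (Insig1 and Srebf2 each time), and 0 with no filter and without run 3 or run 5. Leaving out each library gave 1 to 3 higher and 1 to 2 lower. Over all genes tested, upper-quartile factors gave 1373 higher and 1396 lower genes, against 1608 and 1028. Without run 1 there were 1244 higher genes of 17696, and without the libraries low in Ttr 1206 of 17769. Lower genes numbered 662 of 35040 with no filter, 612 of 17788 without run 3 and 821 of 17789 without run 5. The labels pair no animal with one of the other group, and the fit with the runs as a block, the nearest to a paired one, gave 1982 higher and 1363 lower genes.

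Signs turned only for genes that passed in none of the fits. Without run 1, log2 fold changes were 0.023 for Acat2, 0.024 for Mvk, 0.020 for Fdps, 0.031 for Sqle, 0.030 for Dhcr7, 0.062 for Nsdhl, 0.024 for Scd2 and 0.023 for Fads1. They were 0.00082 for Scd2 and -0.017 for Stard4 without run 2, -0.0065 for Hmgcs1 without run 3, -0.051 for Hmgcs1, -0.0030 for Lss and -0.027 for Stard4 without run 4, 0.0065 for Acat2, 0.00063 for Nsdhl and 0.024 for Fasn without run 5, and -0.023 for Hmgcs1, -0.0017 for Stard4 and 0.017 for Fasn without run 6. Leaving out the libraries low in Ttr gave 0.0085 for Nsdhl, -0.0068 for Stard4, 0.0047 for Fasn and 0.015 for Fads1, and no filter gave 0.0034 for Fasn. Hmgcs1 and Stard4 stood at -0.0098 and -0.011 with upper-quartile factors, -0.015 and -0.0086 with limma-trend, -0.015 and -0.0068 with limma-voom, and -0.014 and -0.0034 with the runs as a block. Leaving out each library gave -0.033 to 0.036 for Hmgcs1, -0.024 to 0.024 for Stard4, -0.019 to 0.015 for Fasn, -0.030 to 0.0050 for Fads1, -0.038 to 0.018 for Nsdhl and -0.039 to 0.00096 for Acat2. The cause of these turns was not tested.
Each animal counts once, and p-values set the difference between groups against the spread between animals of each group, over both ages. The main fit and the spread test treat the animals of a run as independent. For the sterol enzymes, runs held a median of 76.8% of the variance within Ethanol animals and 43.7% within Vehicle animals. Over all genes tested the medians were 52.9% and 51.1%. For these enzymes the number of independent units may therefore be lower than the number of animals. With 2 animals of a treatment in a run, no single run was tested.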

Other observations

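Insig1 varied by run among Vehicle animals, whose lowest values, 109.5 and 116 CPM, were both in run 1.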
